A study of Mus musculus with 60 samples.

Results

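Constitutively active promoters were defined in mouse dorsal root ganglia as open chromatin beside a gene that carried both acetylation marks after each of 4 surgeries. The peaks of the 4 ATAC lists were merged wherever they overlapped by 1 bp or more, which gave 368411 regions. A region was kept if it lay within 1 kb of an end of a protein-coding gene and held a peak of all 4 ATAC, all 4 H3K9ac and all 4 H3K27ac lists, 12 lists in all. Members were thus selected on their ATAC, H3K9ac and H3K27ac peaks. This left 4935 regions, 1.34% of the merged regions (95% Wilson interval 1.30 to 1.38%), at 5746 protein-coding genes.

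The ganglia came from C57BL/6 mice of 6 to 8 weeks, were taken at lumbar levels 4 to 6 and were frozen 24 hours after surgery. The surgeries were axotomy of the sciatic nerve (SNA), which cuts the peripheral branch of the sensory neurons' axons, its control without a cut (Sham), dorsal column axotomy (DCA), which cuts their central branch in the spinal cord, and laminectomy without axotomy (Lam). Of 60 labelled samples, 24 were ChIP samples, 24 their input controls and 12 ATAC samples. Each surgery had 2 ChIP samples per mark and 3 ATAC samples. Every ChIP sample pooled the ganglia of 10 mice and every ATAC sample came from 1 mouse, and whole ganglia hold glia, macrophages, vessel cells and connective tissue besides neurons. The labels name no unoperated group, so constitutive means present after all 4 surgeries in this tissue.

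ATAC-seq finds DNA that a transposase can reach, which at an active promoter is the nucleosome-depleted stretch around the transcription start. H3K9ac and H3K27ac are acetylated forms of histone H3 on the nucleosomes that flank such a stretch. H3K27me3 is laid down by Polycomb repressive complex 2 at silent developmental genes, and because acetylation and methylation use the same lysine, H3K27ac and H3K27me3 cannot sit on the same histone tail. Housekeeping genes typically have promoters rich in CpG dinucleotides, without a TATA box, that are open in every cell type.

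Each of the 16 deposited lists pooled all samples of 1 assay and 1 surgery. No value below therefore has a replicate error or a test between surgeries, and intervals cover counting error only. Sequencing depth per sample is unknown from peak lists. The lists held 153556 to 174605 ATAC peaks, 50332 to 89647 H3K9ac peaks, 43803 to 75824 H3K27ac peaks and 90011 to 154055 H3K27me3 peaks.

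The 250 bases before the annotated start are shown for 4 of the regions with the strongest peaks in all 12 lists (Pcbp1, Ankrd11, Flcn, Rps6), for 2 immediate early genes (Jun, Fos) and for 3 regions that also held H3K27me3 (Fmn2, Ttyh1, Foxd3). The sequences are from RefSeq on GRCm38.p6, 5′ to 3′ on the strand of the gene, and capitals mark matches on either strand to 1 of 10 motifs spelled out further on. The windows are chr6:86526190-86526439, minus strand, for Pcbp1; chr8:123042285-123042534, minus strand, for Ankrd11; chr11:59810040-59810289, minus strand, for Flcn; and chr4:86857368-86857617, minus strand, for Rps6. Those of the early genes are chr4:95052223-95052472, minus strand, for Jun and chr12:85473640-85473889, plus strand, for Fos. The remaining windows are chr1:174501575-174501824, plus strand, for Fmn2; chr7:4119280-4119529, plus strand, for Ttyh1; and chr4:99656049-99656298, plus strand, for Foxd3.
Pcbp1: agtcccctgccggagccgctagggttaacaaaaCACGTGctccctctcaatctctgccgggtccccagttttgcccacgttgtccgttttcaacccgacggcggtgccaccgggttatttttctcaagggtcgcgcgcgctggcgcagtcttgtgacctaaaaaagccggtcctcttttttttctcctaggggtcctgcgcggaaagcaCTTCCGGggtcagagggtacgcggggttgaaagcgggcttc
Ankrd11: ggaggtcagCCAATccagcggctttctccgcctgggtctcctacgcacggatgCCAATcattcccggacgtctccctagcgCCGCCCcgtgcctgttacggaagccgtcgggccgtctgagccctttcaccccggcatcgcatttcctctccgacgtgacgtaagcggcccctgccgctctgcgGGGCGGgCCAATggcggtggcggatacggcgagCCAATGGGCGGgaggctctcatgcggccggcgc
Flcn: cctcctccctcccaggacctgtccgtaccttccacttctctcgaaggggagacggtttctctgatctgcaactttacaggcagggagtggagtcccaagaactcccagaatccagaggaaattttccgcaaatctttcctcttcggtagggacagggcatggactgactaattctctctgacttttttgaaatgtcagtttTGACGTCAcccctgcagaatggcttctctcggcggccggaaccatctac
Rps6: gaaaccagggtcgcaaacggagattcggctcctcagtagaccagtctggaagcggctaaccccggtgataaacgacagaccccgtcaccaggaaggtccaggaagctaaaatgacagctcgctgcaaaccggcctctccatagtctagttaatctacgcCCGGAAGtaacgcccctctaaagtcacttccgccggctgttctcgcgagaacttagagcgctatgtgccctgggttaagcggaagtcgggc
Jun: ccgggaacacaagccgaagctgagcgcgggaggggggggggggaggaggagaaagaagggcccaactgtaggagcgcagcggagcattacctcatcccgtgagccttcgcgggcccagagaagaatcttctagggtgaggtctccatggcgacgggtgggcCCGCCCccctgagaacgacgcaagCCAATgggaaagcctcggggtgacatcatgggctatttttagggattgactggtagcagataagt
Fos: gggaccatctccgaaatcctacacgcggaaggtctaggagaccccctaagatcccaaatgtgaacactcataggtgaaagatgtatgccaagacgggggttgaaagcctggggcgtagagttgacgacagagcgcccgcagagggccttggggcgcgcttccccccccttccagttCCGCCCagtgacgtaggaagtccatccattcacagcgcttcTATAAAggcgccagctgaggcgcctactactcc
Fmn2: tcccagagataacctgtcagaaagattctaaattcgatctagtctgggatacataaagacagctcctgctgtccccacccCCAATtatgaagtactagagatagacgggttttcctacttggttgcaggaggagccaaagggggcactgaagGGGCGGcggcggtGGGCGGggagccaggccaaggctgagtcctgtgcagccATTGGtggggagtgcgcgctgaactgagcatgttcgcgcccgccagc
Ttyh1: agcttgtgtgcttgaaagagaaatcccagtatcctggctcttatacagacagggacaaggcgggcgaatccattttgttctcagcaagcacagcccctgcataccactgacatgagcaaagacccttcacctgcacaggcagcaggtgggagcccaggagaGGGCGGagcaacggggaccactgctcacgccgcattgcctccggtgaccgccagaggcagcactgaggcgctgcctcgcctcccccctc
Foxd3: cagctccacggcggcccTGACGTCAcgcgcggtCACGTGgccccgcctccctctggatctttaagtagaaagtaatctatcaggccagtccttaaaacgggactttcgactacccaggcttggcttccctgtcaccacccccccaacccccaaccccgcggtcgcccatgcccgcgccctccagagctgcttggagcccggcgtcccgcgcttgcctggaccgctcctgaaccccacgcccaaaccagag
Of these windows, 8 lay wholly inside their region, and 170 of 250 bases of the Ttyh1 window did. The ratio of observed to expected CpG was 1.01 at Pcbp1, 1.02 at Ankrd11 and 0.958 at Rps6, against 0.543 at Flcn, 0.676 at Jun, 0.705 at Fos, 0.548 at Fmn2, 0.441 at Ttyh1 and 0.854 at Foxd3. Pcbp1 and Rps6 each held 1 ETS site, 41 and 91 bases before the start. Fos was the only gene of the 9 with a TATA box, which began 33 bases before its start. Flcn, which encodes the tumour suppressor folliculin, held a cyclic AMP response element (CRE) 49 bases before its start, and Ankrd11 held 4 CCAAT boxes and 3 GC boxes.

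Gene ends made up 7.90% of all merged ATAC regions (29085 of 368411), but 69.2% of the regions that held all 12 peaks (4935 of 7137; 95% interval 68.1 to 70.2%). Of the 29085 gene-end regions, 13211 were open in all 4 ATAC lists, and 37.4% of these were constitutively active. The remaining 8276 are called other open gene ends below. H3K27ac was the mark most often missing: of 2273 gene-end regions with 11 of the 12 peaks, 958 (42.1%) lacked only H3K27ac in Sham and 541 (23.8%) lacked only H3K27ac in DCA. A further 191 lacked only H3K9ac in Sham, and 1 lacked only H3K9ac in DCA. These were the 2 smallest H3K27ac lists, the smallest H3K9ac list and the largest H3K9ac list, so the membership follows the list sizes in this respect.

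The promoter label held for most regions. A gene end touched 4437 of the 4935 regions (89.9%). The table with strands placed a gene start within 1 kb of 3906 regions (79.2%; 95% interval 78.0 to 80.3%), against 64.2% of other open gene ends (63.2 to 65.2%). Only the far end of a gene lay near 107 regions (2.17%), and the 922 others (18.7%) had no gene with a strand in that table. Regions shared by 2 or more genes were 20.5% of the total (19.4 to 21.6%) and 12.1% of other open gene ends (11.4 to 12.8%). Starts that faced away from each other, the layout of a bidirectional promoter, were found in 8.39% (7.65 to 9.19%) against 3.41% (3.04 to 3.82%). No RNA was measured, so active describes the marks.

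The 10 regions with the strongest evidence in all 12 lists included those at Pcbp1, Ankrd11, Flcn, Rps6, Zfp236, Stat6, Kmt2e, Gpd2 and Aldoa. They were ranked by the lowest within-list percentile of the authors' −log10 p over the 12 lists, which was 93.8 at Pcbp1 and 90.6 at Aldoa, a glycolytic enzyme. Because these values chose the regions, they are given as a description. Pcbp1 encodes an RNA-binding protein of the poly(C)-binding family, and its region (chr6:86525098-86527369) was 2272 bp wide. The whole width of every peak that touched a region was summed, so a sum can exceed the region. The ATAC peaks of Pcbp1 summed to 2149 bp for Sham, 2177 for SNA, 2272 for Lam and 2153 for DCA. Its H3K9ac peaks summed to 2751, 2328, 2264 and 3345 bp in the same order, and its H3K27ac peaks to 1918, 3082, 3048 and 3705 bp. The open stretch thus kept nearly its full width in each list, while the acetylated stretch reached beyond it in most.

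Rps6, a protein of the small ribosomal subunit, had a narrower region (chr4:86856634-86858053) of 1420 bp. Its ATAC width was 1098 bp for Sham, 1206 for SNA, 1097 for Lam and 1036 for DCA. Its H3K27ac width was 805, 961, 2283 and 767 bp in that order, so the Lam list stood apart. Stat6, a transcription factor of the JAK-STAT pathway, had ATAC widths of 2040, 1828, 1951 and 1833 bp and H3K27ac widths of 2609, 2433, 2213 and 2764 bp. Of the 10, Ankrd11, a chromatin regulator, was the only region with an H3K27me3 peak, which covered 1348 of its 1954 bp in Sham.

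The regions were wider than most merged ATAC regions. The merged width had a median of 1345 bp (quartiles 1085 and 1660, range 393 to 3949), against 1238 bp at other open gene ends, 1199 bp at the 2202 distal regions with all 12 peaks and 439 bp over all regions. All regions include 185120 distal and 6838 gene-end regions that held a peak of only 1 list. Members had to touch a peak of all 12 lists, so their width is not independent of the rule. The summed width of the ATAC peaks in a region had nearly the same median in each list, 1093 bp for Sham, 1126 for SNA, 1106 for Lam and 1137 for DCA. For H3K9ac the medians were 1033, 1238, 1054 and 1716 bp, so DCA stood above the others. For H3K27ac they were 907, 1240, 1311 and 941 bp, with SNA and Lam wide and Sham and DCA narrow. At other open gene ends with a peak the medians were lower in every list, 939 to 993 bp for ATAC, 647 to 1132 bp for H3K9ac and 596 to 790 bp for H3K27ac. Those regions each lack a required acetylation peak. The distal regions with all 12 peaks had wider H3K27ac in every list, at 1118, 1521, 1606 and 1046 bp. Their H3K9ac medians were 1019, 1332, 949 and 1748 bp, wider in SNA and DCA and narrower in Sham and Lam.

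**Figure D1:**
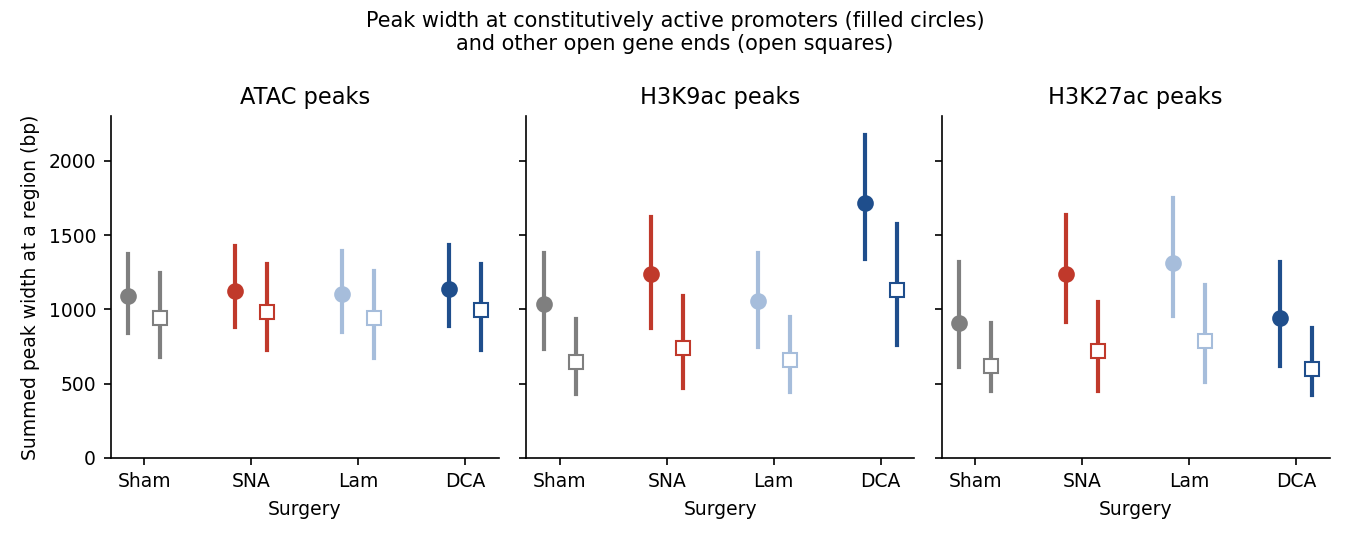
Summed width in bp of the ATAC, H3K9ac and H3K27ac peaks that touch a region, by surgery; symbols are medians and vertical lines join the quartiles over regions, with filled circles for the 4935 constitutively active promoters and open squares for other open gene ends with a peak in that list. ATAC medians stay between 1093 and 1137 bp at the promoters, while H3K9ac reaches 1716 bp in DCA and H3K27ac ranges from 907 to 1311 bp.

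Widths were also ranked within single regions. H3K9ac was widest in DCA at 74.5% of the regions (3677 of 4935) and widest in Lam or Sham at 168 and 195. H3K27ac was widest in Lam at 43.1% and in SNA at 32.9%, and narrowest in Sham at 40.4% and in DCA at 37.9%. For ATAC the widest list was spread more evenly, from 20.9% of regions in Sham to 30.1% in DCA.

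Widths were then set against the matching control surgery, with 1.5 times as the limit. All values that follow use peaks that the rule required, and the share over all regions with a peak in both lists is given beside each count. ATAC peaks were at least 1.5 times wider in SNA than in Sham at 335 of the regions (6.79%; all regions 18.9%) and as much narrower at 191 (3.87%; all regions 13.8%). Between DCA and Lam the counts were 330 wider (6.69%; 20.9%) and 191 narrower (3.87%; 13.3%), and between Lam and Sham 300 (6.08%; 16.2%) and 268 (5.43%; 18.4%). Lam and Sham had no axotomy, and they differed about as often as each injury differed from its control.

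H3K9ac was wider in SNA than in Sham at 1238 regions (25.1%; all regions 35.7%) and narrower at 425 (8.61%; 10.6%). In DCA against Lam it was wider at 2740 (55.5%; 63.4%) and narrower at 23 (0.466%; 2.15%). Lam against Sham gave 854 each way (17.3% each), with 17.6% wider and 26.7% narrower over all regions. The median log2 ratio was 0.21 in SNA against Sham, 0.67 in DCA against Lam and 0.00 in the pair without axotomy. Over all regions it was 0.32, 0.84 and −0.09, so the members were below all regions in both injury pairs. The H3K9ac lists held 74652 peaks for SNA, 50332 for Sham, 89647 for DCA and 50667 for Lam. The part of list size in these ratios was not tested.

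H3K27ac was wider in SNA than in Sham at 1964 regions (39.8%; all regions 36.8%) and narrower at 420 (8.51%; 16.7%). In DCA against Lam the direction was opposite, with 287 wider (5.82%; 7.57%) and 2057 narrower (41.7%; 45.8%). Lam against Sham gave 2135 wider (43.3%; 40.7%) and 308 narrower (6.24%; 11.1%), so the pair without axotomy differed as much as either injury pair. The median log2 ratios were 0.39, −0.43 and 0.46, and over all regions 0.29, −0.49 and 0.38. The larger H3K27ac list of each pair had the larger summed width at the regions, and the part of list size was not tested. Single peaks need not be wider, since over the whole lists the median H3K27ac peak was 428 bp in SNA and 524 bp in Sham. The share of regions with 2 or more H3K27ac peaks was 29.5% for Sham, 60.9% for SNA, 47.2% for Lam and 38.3% for DCA. The first and the third comparison share the Sham list, and the second and the third the Lam list.

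The strength of the peaks was read from their rank within each list. The median region's strongest ATAC peak ranked at percentile 96.2 for Sham, 96.7 for SNA, 96.4 for Lam and 96.6 for DCA by the authors' −log10 p. For H3K9ac the percentiles were 89.2, 90.4, 87.9 and 94.4. For H3K27ac they were 61.6, 91.8, 85.6 and 72.9. Of the 5000 strongest H3K27ac peaks of a list, the regions held 47.2% for SNA (95% interval 45.8 to 48.6%), 27.5% for Lam, 14.8% for DCA and 5.12% for Sham (4.54 to 5.77%). Their share of all H3K27ac peaks was 11.03 to 14.97% in the same 4 lists, so the Sham list placed its strongest peaks elsewhere. The corresponding shares of the strongest ATAC peaks were 43.6 to 44.3%, and of H3K9ac peaks 42.9 to 50.2%. The regions held 3.10 to 3.56% of all ATAC peaks and 7.43 to 15.01% of all H3K9ac peaks. The rule required a peak of each of these lists, so the ranks and shares are a description.

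The 10 widest regions were at Shisa5, Cdk6, the head-to-head pair Txndc17 and 4933427D14Rik, Adgrl2, Grifin, Ing1, Itpkb, Ticam1, Camk2n1 and Jun. The starts of Adgrl2 and Ticam1 lay 32290 and 4149 bp away, so these regions are not at their annotated starts. Shisa5 had the widest region (chr9:109037928-109041876, 3949 bp), with ATAC widths of 3236 bp for Sham, 2869 for SNA, 3261 for Lam and 3338 for DCA. At Cdk6, a cyclin-dependent kinase of the G1 phase (chr5:3340962-3344872, 3911 bp), H3K27ac peaks summed to 1704, 785, 2378 and 508 bp, and the DCA value was the lowest. Jun, an AP-1 subunit and a transcription factor induced in injured neurons, had a region of 3392 bp (chr4:95050292-95053683). Its ATAC widths were 2756, 2978, 1984 and 2418 bp. Its H3K9ac widths were 2526, 3187, 2027 and 3646 bp and its H3K27ac widths 2965, 3090, 2918 and 2720 bp, so the H3K27ac stretch at Jun varied little between lists. Among the 10, H3K27me3 peaks touched 3 regions in 1 list each, those of Adgrl2, Grifin and the Txndc17 pair.

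The summits placed the assays around the start of the gene. This was measured in the 2989 regions with exactly 1 gene start within 1 kb, using the strongest summit of each list. ATAC summits lay just upstream, at a median of −27 bp for Sham, −25 for SNA, −27 for Lam and −24 for DCA, and 69.99 to 70.86% were within 150 bp of the start. With all summits of a region in place of the strongest, the ATAC medians turned to the downstream side, at 116, 126, 132.5 and 128.5 bp. H3K9ac summits lay downstream, at medians of 245, 235, 239 and 259 bp, and H3K27ac summits at 171, 182, 202 and 188 bp. Within 150 bp of the start lay 8.36 to 10.9% of the H3K9ac summits and 11.04 to 11.84% of the H3K27ac summits. Both acetylation marks thus peaked on either side of the start, and more often on the transcribed side. H3K9ac summits were downstream in 69.99 to 82.07% of the regions and H3K27ac summits in 58.7 to 64.7%. The open stretch also reached farther downstream, by a median of 653 to 680 bp against 394 to 404 bp upstream.

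**Figure D2:**
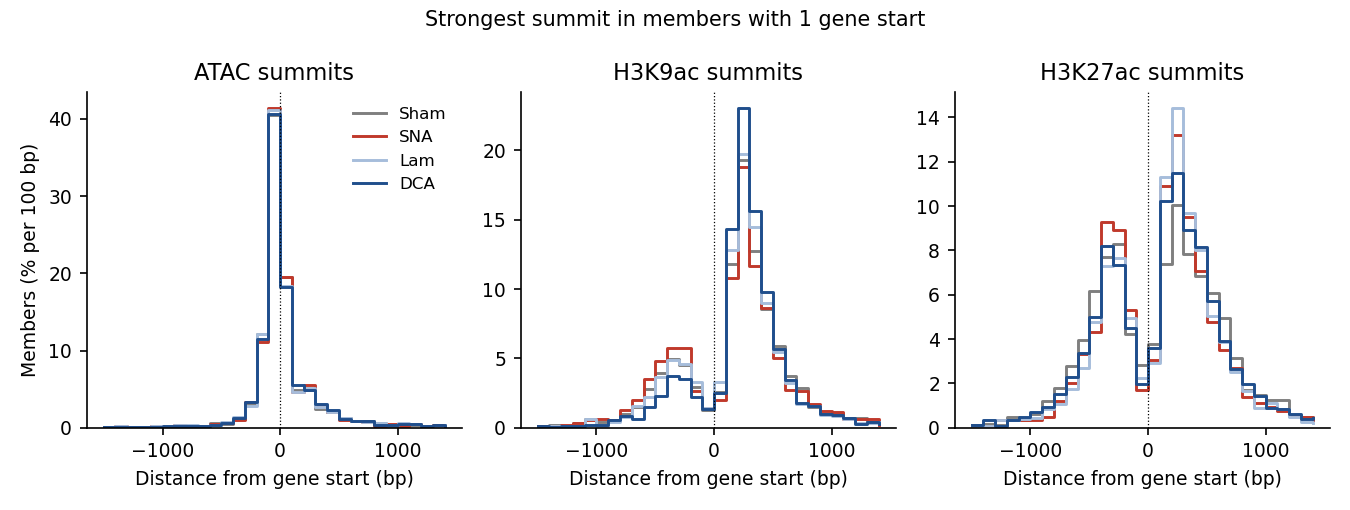
Distance in bp of the strongest summit from the gene start, in the direction of transcription, for the 2989 constitutively active promoters with 1 gene start, as percent of regions per 100 bp and by surgery; the dotted line is the start. ATAC summits gather at the start, and H3K9ac and H3K27ac summits form a larger group downstream and a smaller one upstream in each of the 4 lists.

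The promoter sequence was independent of the rule. A promoter is here the window from 250 bases before to 50 after the start, 300 bases in all, for 4399 genes with a start within 1 kb of the regions, 5440 genes with a start near other open gene ends and 17486 genes of the whole table. The GC content had a median of 62.0% (quartiles 56.7 and 67.3), against 61.7% at other open starts and 56.3% in the table. The observed to expected CpG ratio had medians of 0.801, 0.751 and 0.577. A GC content of at least 50% together with a ratio of at least 0.6, the usual mark of a CpG island, was met by 77.6% of the promoters, 67.8% of those at other open starts and 45.8% of all. The other 985 promoters of the regions did not meet it.

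Motifs were counted as exact letters on either strand. The ETS site CCGGAAG, bound by factors such as GABPA, was in 22.6% of the promoters (95% interval 21.4 to 23.9%), 14.01% at other open starts (13.11 to 14.96%) and 11.9% of all promoters. The YY1 site AAGATGGC was in 5.93% (5.27 to 6.67%), 3.42% (2.97 to 3.94%) and 3.21%. The NRF1 site GCATGCGC was in 6.50% (5.81 to 7.27%), 4.63% (4.11 to 5.22%) and 3.61%. The CRE letters TGACGTCA were in 4.001% (3.46 to 4.62%), 2.94% (2.52 to 3.42%) and 2.33%. For these 4 motifs the intervals of the regions and of other open starts did not overlap. Among the other 6 motifs, which follow, the intervals were apart only for CCAAT, which was less frequent in the regions.

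The SP/KLF GC box GGGCGG was in 68.7% (67.4 to 70.1%), 67.2% (65.9 to 68.4%) and 46.3%. CCAAT was in 37.0% (35.6 to 38.4%), 39.9% (38.6 to 41.2%) and 39.2%. The TATA box TATAAA was in 5.80% (5.14 to 6.53%), 6.88% (6.23 to 7.58%) and 13.3%. The AP-1 site TGANTCA, whose factors are induced by nerve injury, was in 4.05% (3.503 to 4.67%), 4.19% (3.69 to 4.76%) and 7.03%. The E-box CACGTG was in 10.3% (9.39 to 11.2%), 10.8% (10.1 to 11.7%) and 7.92%, and the ZNF143 letters ACTACAAT in 1.14% (0.863 to 1.49%), 0.974% and 0.875%. TATA and AP-1 letters were thus less frequent at open starts of both kinds than in the table, with intervals apart, and the table includes the regions' own promoters. No motif's letters contain those of another, though matches may abut. A match is a description and not a bound site.

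H3K27me3 was not part of the rule. A peak of this mark overlapped 257 regions for Sham (5.21%; 95% interval 4.62 to 5.86%), 15 for SNA (0.304%; 0.184 to 0.501%), 210 for Lam (4.26%; 3.73 to 4.86%) and 3 for DCA (0.0608%; 0.0207 to 0.179%). Over all merged regions the shares were 16.0% for Sham, 14.2% for SNA, 23.1% for Lam and 6.5% for DCA. Other open gene ends had 26.04% (2155 regions), 13.1% (12.4 to 13.8%), 28.3% (27.3 to 29.3%) and 3.20% (2.84 to 3.604%) in the same order. The regions were thus below both in each of the 4 lists, with intervals that did not overlap. The rule required H3K27ac, which uses the same lysine, and other open gene ends each lack a required acetylation peak. This comparison is therefore not independent of the rule. The distal regions with all 12 peaks had 4.72% (3.91 to 5.69%), 0.681%, 6.90% (5.92 to 8.04%) and 0.0454%. Their interval was above that of the promoters in Lam and overlapped it in the other lists.

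**Figure D3:**
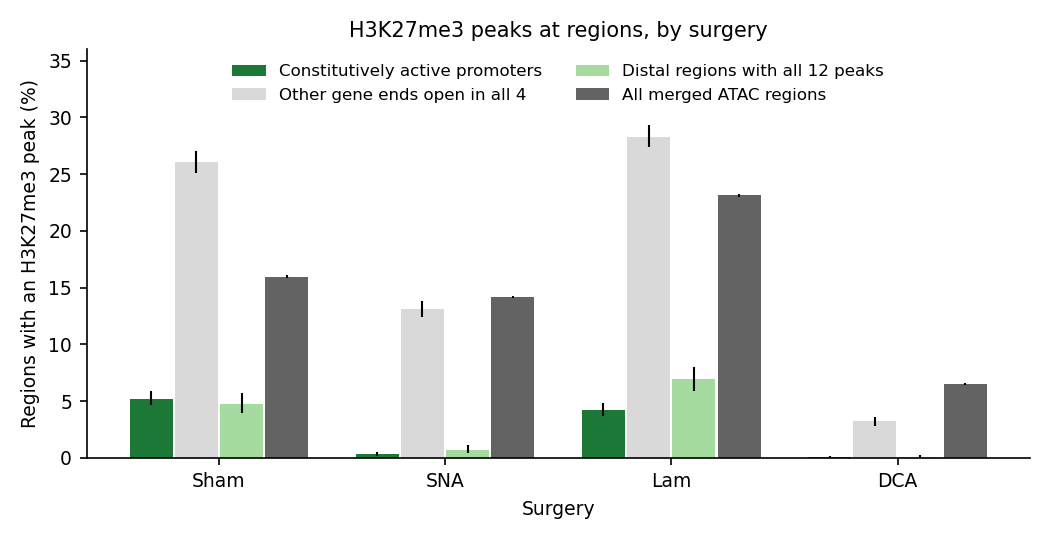
Share in percent of regions with an H3K27me3 peak, by surgery, for the constitutively active promoters, other open gene ends, distal regions with all 12 peaks and all merged ATAC regions; bars start at 0 and error bars are 95% Wilson intervals. The promoters stand at 5.21% for Sham, 0.304% for SNA, 4.26% for Lam and 0.0608% for DCA, below other open gene ends in each list.

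The shares were also lower among regions of like width. Among those of 1000 to 1500 bp, the shares were 4.36% (99 of 2273), 0.0880%, 3.74% and 0.0440% at the promoters, against 23.9% (823 of 3439), 11.7%, 26.1% and 2.97% at other open gene ends. The H3K27me3 lists differed in size, with 122953 peaks over 178.0 Mb in Sham, 141635 over 172.7 Mb in SNA, 154055 over 194.2 Mb in Lam and 90011 over 91.4 Mb in DCA. With the 4 lists cut to equal numbers of peaks, the promoter shares were 3.51% for Sham, 0.223% for SNA, 2.96% for Lam and 0.0608% for DCA. The order of the surgeries at the promoters was then the same. The part of the covered length in this order was not tested. Where the mark was present it also covered less. The median share of the region covered was 37.5% for Sham, 19.8% for SNA, 28.3% for Lam and 10.9% for DCA, against 100.0%, 43.1%, 75.5% and 18.4% at other open gene ends with a peak. The region's midpoint lay under the peak in 124 of 257 regions for Sham, 3 of 15 for SNA, 65 of 210 for Lam and none of 3 for DCA.

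Most of these H3K27me3 peaks were weak by the authors' measures. Their median fold enrichment over background was 1.09 for Sham, 1.15 for SNA, 1.24 for Lam and 1.07 for DCA. Only 2 regions in Sham and 4 in Lam had a peak with q of at most 0.05, and none did in SNA or DCA. Other open gene ends had 17, 1, 4 and 0 such regions. At this limit the share was 0.0405% against 0.205% in Sham and 0.0811% against 0.0483% in Lam, where the order turned. The 6 regions were at Slc43a1 and Gal3st1 in Sham, and at Mst1r, Smtn, Castor1 and 4930563E22Rik in Lam, and they were singled out after their values were seen. In the whole lists 1613, 218, 916 and 43 peaks met the limit.

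H3K27me3 coverage was low across the region and higher farther out. At the midpoint of the regions, H3K27me3 peaks covered 2.51% for Sham, 0.0608% for SNA, 1.32% for Lam and none for DCA. At 5 kb toward higher coordinates they covered 4.94, 2.90, 4.88 and 1.20%, and at 5 kb on the other side 4.36, 3.30, 5.01 and 1.52%. Coverage at 5 kb was thus above that at the midpoint on both sides in each list, and in Sham the lowest value, 1.76%, lay 1250 bp from the midpoint. H3K9ac coverage fell over the same span, from 64.0% at the midpoint to 3.18% at 5 kb in Sham, and from 89.6 to 7.92% in DCA. At other open gene ends, H3K27me3 peaks covered 21.4% of midpoints for Sham, 5.67% for SNA, 18.7% for Lam and 0.435% for DCA. At 5 kb toward lower coordinates they covered 13.3, 9.59, 13.7 and 4.54%. Other open gene ends thus shared the low midpoint in SNA and DCA, while in Sham and Lam their midpoint was the higher.

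**Figure D4:**
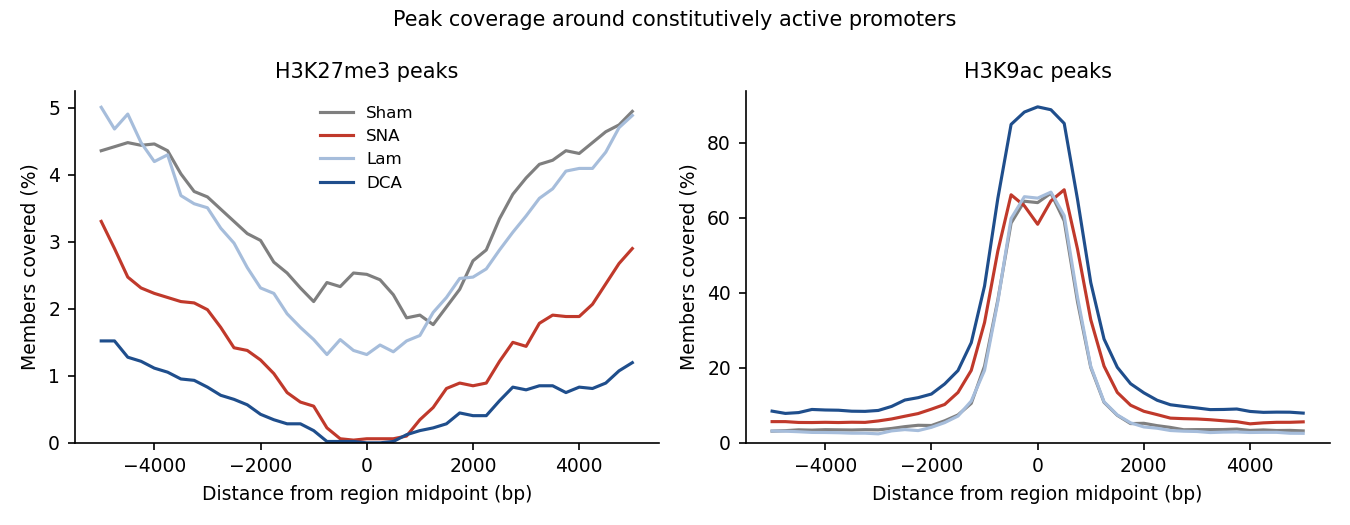
Percent of the 4935 constitutively active promoters covered by an H3K27me3 peak (left) or an H3K9ac peak (right) at each distance in bp from the region midpoint, in steps of 250 bp and by surgery. At the midpoint H3K27me3 coverage is 0.0608% in SNA and 2.51% in Sham, below the values at 5 kb, and H3K9ac coverage is high.

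H3K27me3 was absent from 4503 regions in all 4 lists, present in 1 list at 381, in 2 at 49 and in 3 at 2, and no region held it in all 4, where the 3 regions of DCA set the most there could be. Of the 257 Sham regions, 47 also had it in Lam, which is 18.3% of the Sham and 22.4% of the Lam regions. Over all members the shares were 4.26% in Lam and 5.21% in Sham, so the overlap was above both. Fmn2, a formin that nucleates actin filaments, held it in 3 lists (chr1:174501549-174503879), over 1292 bp in Sham, 298 in SNA and 926 in Lam of its 2331 bp. Ttyh1, a membrane protein of the tweety family, held it over 617, 384 and 214 of 617 bp (chr7:4119360-4119976). At both genes the SNA and Lam peaks covered fewer bp than the Sham peak, and the DCA list had no peak. The fold enrichment was higher in Lam than in Sham, at 1.69 against 1.18 for Fmn2 and 2.08 against 1.27 for Ttyh1. None of these peaks had q of at most 0.05.

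The next regions by this rank were at Foxd3, Hoxc10, Adora1, Trim36, Frzb, Col26a1, Trim9 and Rasgef1c, each marked in Sham and Lam. Foxd3, a transcription factor of the neural crest from which ganglion glia and neurons descend, was covered over its whole 2437 bp in both lists (chr4:99655815-99658251). Its H3K27ac width was 632 bp for Sham, 4212 for SNA, 1705 for Lam and 273 for DCA, so SNA was the widest by far. Hoxc10 was likewise covered over all 1755 bp in Sham and Lam (chr15:102965948-102967702), and its H3K27ac width ranged only from 753 to 1618 bp. Adora1, the adenosine A1 receptor, had H3K27me3 over 1970 bp in Sham and 1508 bp in Lam. Whether both marks lay in the same cells was not tested, since each list pools whole ganglia.

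Of the 21887 protein-coding genes, 26.3% had a constitutively active promoter and 60.5% had an end open in all 4 ATAC lists. The lists that follow were compared with these shares, as counts. Among the 13252 genes with an end open in all 4 lists, the share with a constitutively active promoter was 43.4%. Lists of basic cell functions were above the 26.3% of all genes. They were also more often open, from 83.3% of the histone enzymes to 100.0% of the chaperonin and heat shock proteins. Their excess over 26.3% is therefore not one over open genes. The set held 49 of 78 nuclear subunits of oxidative phosphorylation (62.8%; 95% interval 51.7 to 72.7%), among them Atp5b and Cox5b. It held 47 of 79 cytosolic ribosomal proteins (59.5%), such as Rpl10a and Rpl11. Of the ribosomal genes 76 of 79 were open in all 4 ATAC lists, so most of those left out lacked an acetylation peak and not access. A start was known for 36 of the 47, and 34 of these had it within 1 kb of the region.

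Spliceosome proteins counted 21 of 31 (67.7%), with Prpf19 and Prpf3. Cytosolic aminoacyl-tRNA synthetases, which charge transfer RNAs, counted 11 of 20 (55.0%), with Dars and Farsa. Chaperonin and heat shock proteins counted 13 of 23 (56.5%), with Cct5 and Cct6a, and RNA polymerase II and Mediator 21 of 41 (51.2%), with Med1 and Med11. Proteasome subunits were lower, at 13 of 31 (41.9%; 26.4 to 59.2%), with Psma3 and Psma5, though the start of Psma3 lay 5847 bp from its region. As 30 of the 31 were open in all 4 ATAC lists, they were near the 43.4% of open genes. With no H3K27ac list required, an alternative chosen after seeing the data, 38.7% of all genes (8469) were in the set. The counts were then 28 of 31 proteasome subunits, 22 of 23 chaperones, 17 of 20 synthetases and 35 of 41 polymerase and Mediator genes. Enzymes that write or erase histone acetylation and methylation counted 18 of 30 (60.0%; 42.3 to 75.4%), including the acetyltransferases Crebbp and Ep300 and the Polycomb subunit Eed. At Atp5b the ATAC width was 1515 bp for Sham, 1267 for SNA, 1165 for Lam and 1277 for DCA, and its H3K27ac width 912, 1651, 1570 and 710 bp, wider in SNA and Lam as in the median region. At Crebbp all 4 H3K27ac widths were short, at 335, 775, 835 and 483 bp.

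**Figure D5:**
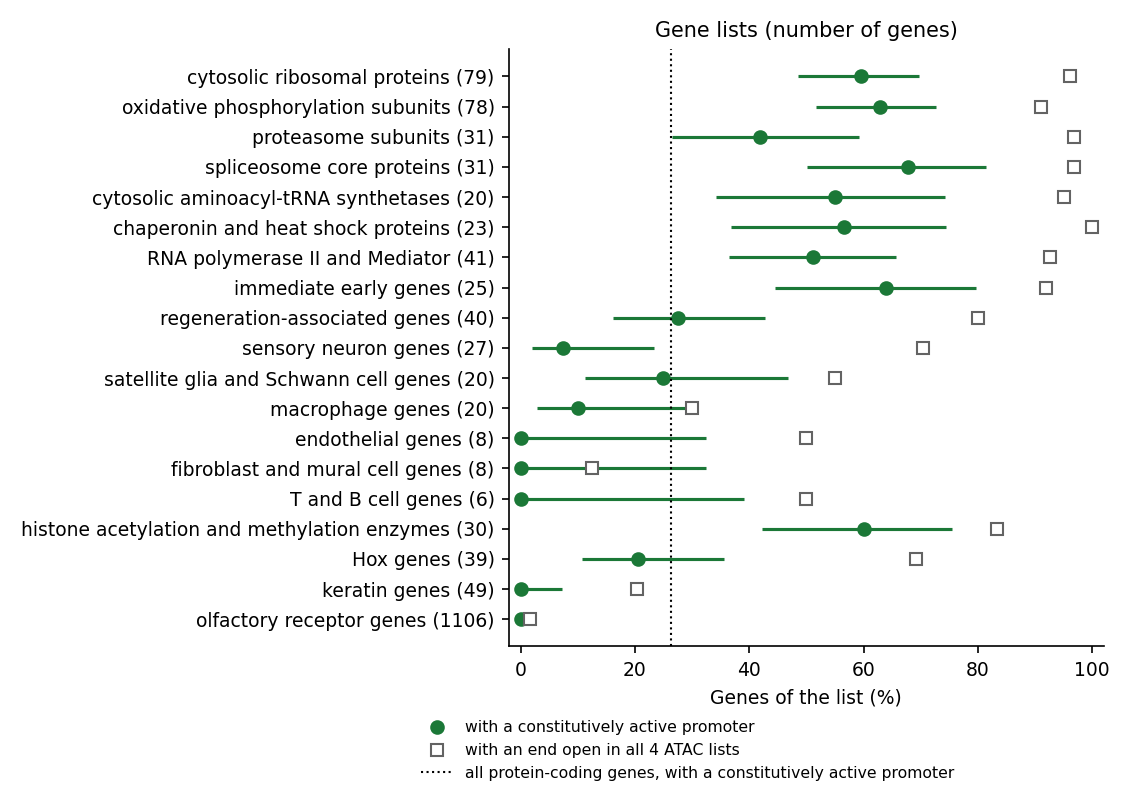
Percent of the genes of 19 lists (number of genes in parentheses) with a constitutively active promoter (circles, with 95% Wilson intervals) and with an end open in all 4 ATAC lists (squares); the dotted line is 26.3%, the share over all protein-coding genes. Lists of basic cell functions lie between 41.9 and 67.7%, while sensory neuron genes are at 7.41% though 70.4% of them are open.

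Immediate early genes, which respond to stimuli without new protein synthesis, were in the set at 16 of 25 (64.0%; 44.5 to 79.8%), such as Btg2, Dusp1, Egr1 and Fos. Atf3, a factor induced in injured neurons, was not in it, and neither were Arc and Myc. At Fos (chr12:85473348-85474705) the H3K27ac peaks summed to 3458 bp for Sham, 3642 for SNA, 3723 for Lam and 1183 for DCA, and the DCA list was the lowest. At Egr1 they summed to 2477, 697, 1578 and 309 bp, where Sham was the highest. Regeneration-associated genes were close to the share of all genes, at 11 of 40 (27.5%; 16.1 to 42.8%), with Cd44, Cebpd, Crem and Fos. Of these 40, 32 were open in all 4 ATAC lists, and the 11 were among the 32. Of all open genes, 43.4% were in the set.

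The cell type lists were all below the share of all genes, and glia came closest to it. Of the sensory neuron genes, 2 of 27 had a constitutively active promoter (7.41%; 2.06 to 23.4%), although 19 were open in all 4 ATAC lists. The 2 genes were Ntrk2, the receptor of brain-derived neurotrophic factor, and P2rx3, an ATP-gated channel of pain fibres, whose region is shared with Ssrp1. The 12 defining markers included Avil, Isl1, Pou4f1, Prph, Rbfox3, Scn9a, Tubb3, Snap25, Uchl1, Ret and Calca, and all 12 had an ATAC peak at a gene end in each list. H3K9ac was found in all 4 lists at Tubb3 alone, H3K27ac in all 4 at none, and none was in the set. H3K27me3 was found in all 4 lists at Isl1, Pou4f1 and Calca. With no H3K27ac list required, 4 of the 27 genes were in the set, against 38.7% of all genes. In whole ganglia, fewer cells of a type and a weaker mark per cell cannot be told apart.

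For glia the list of 20 gave 5 genes (95% interval 11.2 to 46.9%), which cannot be told from the share of all genes. Among them were Erbb3, Foxd3, Glul and S100b, and 1 of the 2 regions of Erbb3 is shared with Pa2g4. At S100b the H3K27ac width was 547 bp for Sham, 1445 for SNA, 1456 for Lam and 1181 for DCA. Macrophage genes gave 2 of 20 (10.0%), Cd14 and Cd68, and the start of Cd68 lay 2616 bp from its region, which is also at Mpdu1. Endothelial genes gave 0 of 8, fibroblast and mural cell genes 0 of 8, and T and B cell genes 0 of 6. The Wilson upper bounds were 30.1% for macrophage, 32.4% for endothelial, 32.4% for fibroblast and mural and 39.0% for T and B cell genes. All lie above the 26.3% of all genes, so these short lists cannot be told from it. Of 49 keratin genes none was in the set (Wilson upper bound 7.27%), and of 1106 olfactory receptor genes none (Wilson upper bound 0.346%). These lists hold genes best known from epithelia and the nose, and 10 keratin and 19 olfactory genes had an end open in all 4 lists.

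Hox genes set body position and are classic Polycomb targets, and 8 of 39 were in the set (20.5%; 10.8 to 35.5%). They included Hoxb2, Hoxb4, Hoxc6, Hoxc8, Hoxc9 and Hoxc10. H3K27me3 overlapped 6 of the 8 in Sham, Lam or both, and none in SNA or DCA. Over all members, 91.25% held none in any list. The peaks at the Hox regions were weak, with fold enrichments of 1.02 to 1.23, and none had q of at most 0.05. Hoxb2 and Hoxb4 held none in any list. At Hoxc8 it covered 1497 of 1497 bp in Sham and 1151 bp in Lam.

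The set was uneven across chromosomes. Only 19 of 966 X-linked genes had a constitutively active promoter (1.97%; 1.26 to 3.05%), against 5727 of 20665 autosomal genes (27.7%), and chromosome 11 had the highest share, 36.4% (34.1 to 38.8%). Fewer X-linked genes were open, as 23.9% of X-linked genes and 63.0% of autosomal genes had an end open in all 4 lists. Of the open genes, 8.23% were in the set on X and 44.0% on autosomes. At the 214 open gene ends of X, H3K27ac peaks were present in 24.3% for Sham, 59.8% for SNA, 49.1% for Lam and 34.1% for DCA, against 53.3, 69.6, 69.3 and 57.9% on autosomes. H3K9ac was present at 46.3% of the X gene ends in Sham, 65.4% in SNA and 63.6% in Lam, against 67.1, 67.5 and 68.4% on autosomes. In DCA it was at 86.0% on X and 81.2% on autosomes. The 18 X-linked regions included Ddx3x, Kdm6a, Hcfc1, Med12, Nono and Stag2, chosen here after their values were seen. On Y none of 256 genes was in the set, where only 1 had an end open in all 4 ATAC lists.

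Regions near the distance limit show how the set ends. The farthest inside it were Prkar1a at 999 bp, Ankrd52 and Gm45915 at 993, Ptma at 983 and Kcnh8 at 982. Just outside lay Ipo8 at 1003 bp, Hlcs at 1006, Rhobtb2 at 1007, 4930453N24Rik at 1008 and Kdm6b, an H3K27 demethylase, at 1012.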

How the data were processed

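The authors deposited 16 peak lists, each made from the pooled replicates of 1 assay and surgery per the series design text. Coordinates are on mm10 per the submitters' processing notes; the aligner, the peak caller and its filters are not given in the sources used here. The deposited columns hold a display score, which was not used further, a fold enrichment (a linear ratio over background), and the authors' −log10 p and −log10 q. These values were used only within a list. Repeats of an ATAC interval with several summits were collapsed to the summit of highest −log10 p.

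Regions were merged, linked to genes and counted with Python 3.11.15, pandas 2.3.3, NumPy 2.4.6 and SciPy 1.17.1, and the rule was tested on simulated peaks. Overlap meant 1 bp or more. Gene ends were those of 21887 protein-coding genes of RefSeq on GRCm38.p6; 17492 of them had a strand and promoter sequence. Shares have 95% Wilson intervals. Named genes are the 10 regions with the strongest evidence in all lists, the 10 widest, the 10 with H3K27me3 in most surgeries, 5 on either side of the distance limit and 2 to 4 genes of each list in alphabetical order, with the defining markers. Some genes that this rule names are not reported here. The members, gene lists and alternatives were chosen with earlier results of these data known. No list of the input samples was used here. Alternatives changed the distance, the overlap, the −log10 q minimum, list sizes, merging and the lists required.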

Additional observations from a re-analysis of the deposited data

Results flagged for a closer look

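The width of H3K27ac at the constitutively active promoters moved in opposite directions in the 2 injuries relative to their own controls. The median log2 ratio of the summed width was 0.39 in SNA against Sham and −0.43 in DCA against Lam. Lam against Sham, a pair without axotomy, gave 0.46. The difference was not tested, since each list is a pool with no replicates. The H3K27ac list of SNA (75824 peaks) was larger than that of Sham (43803), and that of DCA (46489) smaller than that of Lam (67311); the part of list size in this difference was not tested.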

How the results depend on the processing

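No paired analysis was possible because each list pools the replicates of its condition. The set of 4935 regions and 5746 genes shrank to 3256 regions with −log10 q of at least 2 in every list and to 388 regions and 472 genes with at least 5, and it grew to 7443 regions with no H3K27ac list required, an alternative chosen after seeing the data. Leaving out the lists of 1 surgery gave 6203 regions without Sham, 5109 without SNA, 5184 without Lam and 5480 without DCA. With −log10 q of at least 2, the median H3K9ac width was 965 bp in Sham, 1169 in SNA and 990 in Lam. Taking the widest single peak gave ATAC medians of 1047, 1087, 1057 and 1103 bp in the order Sham, SNA, Lam, DCA, H3K9ac medians of 817, 935, 780 and 1466 bp, and H3K27ac medians of 758, 847, 980 and 723 bp. The share of regions with H3K27me3 in Sham, SNA and Lam was 0.0405, 0 and 0.0811% at q of at most 0.05, 3.65, 0.0811 and 2.31% in a window of 500 bp, 1.95, 0.0608 and 1.03% with 0.5 or more of the region covered, 3.75, 0.0921 and 3.501% at regions with −log10 q of at least 2, and 6.36, 0.672 and 5.48% with no H3K27ac list required. With equal H3K27me3 list sizes it was 3.51% in Sham and 2.96% in Lam. In DCA it was 0, 0.0203 and 0% at the q limit, in the window and with 0.5 or more covered. Taking all summits in place of the strongest turned the ATAC median from upstream to downstream, at 116, 126, 132.5 and 128.5 bp, and moved H3K9ac to 227 bp in Sham, 218 in Lam and 224 in DCA. For all of these the cause was not tested. The other 53 values of main comparisons stayed within the interval of the main value or, for counts, within 1.5 times. Peak lists give no read depth, so weak peaks missed in a smaller list cannot be counted.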
